A study of Mus musculus with 12 samples.

Results

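The 8 genes described here, Pdgfra, Olig1, Olig2, Sox10, Lhfpl3, Ptprz1, C1ql1 and Tnr, are genes by which oligodendrocyte progenitor cells (OPCs) are commonly recognised in the brain. They were found by their symbols among the 54833 genes of the count table, and all 8 were present and passed the filter on low counts that left 21495 genes for testing. RNA-seq was performed on perihematomal tissue of the caudate putamen from male wild-type (WT) C57BL/6 mice at 24 h after surgery, with 3 samples in each of 4 groups. Young mice (8 to 10 weeks) and aged mice (20 to 22 months) received either type IV collagenase, which breaks down the wall of small vessels and so causes an intracerebral hemorrhage (ICH), or a saline injection (sham). Each sample pooled tissue from more than 1 mouse, so that every P value measures the spread between pools, and which mice went into which pool was not used here.

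OPCs are the dividing glial cells of the adult brain that give rise to oligodendrocytes, the cells that make myelin. They sense platelet-derived growth factor through the receptor Pdgfra, are held in the lineage by the transcription factors Olig1, Olig2 and Sox10, and carry a matrix-rich surface to which Ptprz1 and tenascin-R (Tnr) belong. Several of the 8 genes are also transcribed elsewhere: Olig1, Olig2 and Sox10 along the whole oligodendrocyte lineage, Ptprz1 in astrocytes, Tnr in oligodendrocytes and some interneurons, and Pdgfra in fibroblasts around vessels. In bulk tissue of this kind, fewer cells of a type and less RNA per cell cannot be told apart.

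The libraries held 28410896 to 37785160 counts on genes, and the TMM factors that scale them lay between 0.954 and 1.04. Samples of a group differed by far more than sampling noise, with a chi-square per degree of freedom of 9.25 to 42.7, so that all 12 were kept as separate samples. Genes of striatal projection neurons, the main neurons of this tissue, were detected in every library. Their summed level was lowest in replicate 2 of young ICH (369 CPM, counts after scaling for library size) and replicate 1 of aged ICH (250.1 CPM), against 607 to 2179 CPM in the others. In a fit without these 2 libraries, an alternative chosen after seeing the data, 17.8% of all genes passed the adjusted test in young ICH vs. young sham, against 19.1% with them, and 3.51% in aged ICH vs. aged sham, against 13.2%. Of the genes of the lists used below, 43 of 47 calls held in young mice and 15 of 48 in aged mice. For calls of named genes that did not hold, the log2FC and adjusted P without the 2 libraries are given. Genes of the choroid plexus and ependyma, which lie next to this tissue, ranged from 20.2 to 4079 CPM in summed level between libraries.

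After ICH, Tnr fell by 38.4% in young mice and fell by 33.3% in aged mice. Ptprz1 fell by 20.4% in aged mice. The other members did not pass the adjusted test (edgeR quasi-likelihood test, Benjamini-Hochberg adjusted P under 0.05 over all genes tested) in any comparison. In young ICH vs. young sham 1 of 8 members passed (0 higher, 1 lower), where 19.1% of all genes tested passed in either direction and 9.23% were lower. In aged ICH vs. aged sham 2 of 8 passed (0 higher, 2 lower), against 13.2% of all genes in either direction and 6.15% lower. DESeq2 also called 1 and 2 members in these comparisons, against 22.7% and 20.5% of the genes it tested. By the study's criterion for a differentially expressed gene (DEG), which is a fold change (FC) above 1.5 or below 0.67 with an unadjusted P under 0.05, there was 1 DEG among the 8 in young ICH, Tnr (12.2% of all genes), and there were 2 in aged ICH, Tnr and C1ql1 (10.1% of all genes). Read against these shares, the counts of members called are no result about the 8 genes as a set. The same shares, 19.1% and 13.2%, stand beside every count of called list genes given below for ICH vs. sham in young and aged mice.

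The signs of the log2FC were split otherwise in each age. Over all 8 genes, in young mice 5 members were higher and 3 lower after ICH, with a median log2FC of 0.12, whereas in aged mice 1 was higher and 7 were lower, with a median of −0.31. The medians over all genes tested were 0.02 and 0.0018. The difference of the responses itself (the interaction of age and ICH) was negative for 7 of 8 members, with a median of −0.33 against −0.0051 over all genes. It passed the adjusted test for 0 of 8 members, as for 0% of all genes in edgeR. DESeq2 called 0 members (0.00251% of the genes it tested), and 1 member, C1ql1, had an unadjusted P under 0.05 (2.82% of all genes). The different directions in the 2 ages were therefore not shown to be different responses. A negative interaction was not particular to the members. It was found for 14 of 14 genes of mature oligodendrocytes and myelin (median −0.46), 10 of 10 of astrocytes and 8 of 8 of fibroblasts. It was also found for 8 of 9 genes of striatal projection neurons, 7 of 7 of neutrophils and 8 of 8 of monocytes and macrophages. Of the other neuronal lists, it was found for 3 of 10 neuronal genes, 4 of 8 of striatal interneurons and 1 of 6 of cortical neurons.

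**Figure D1:**
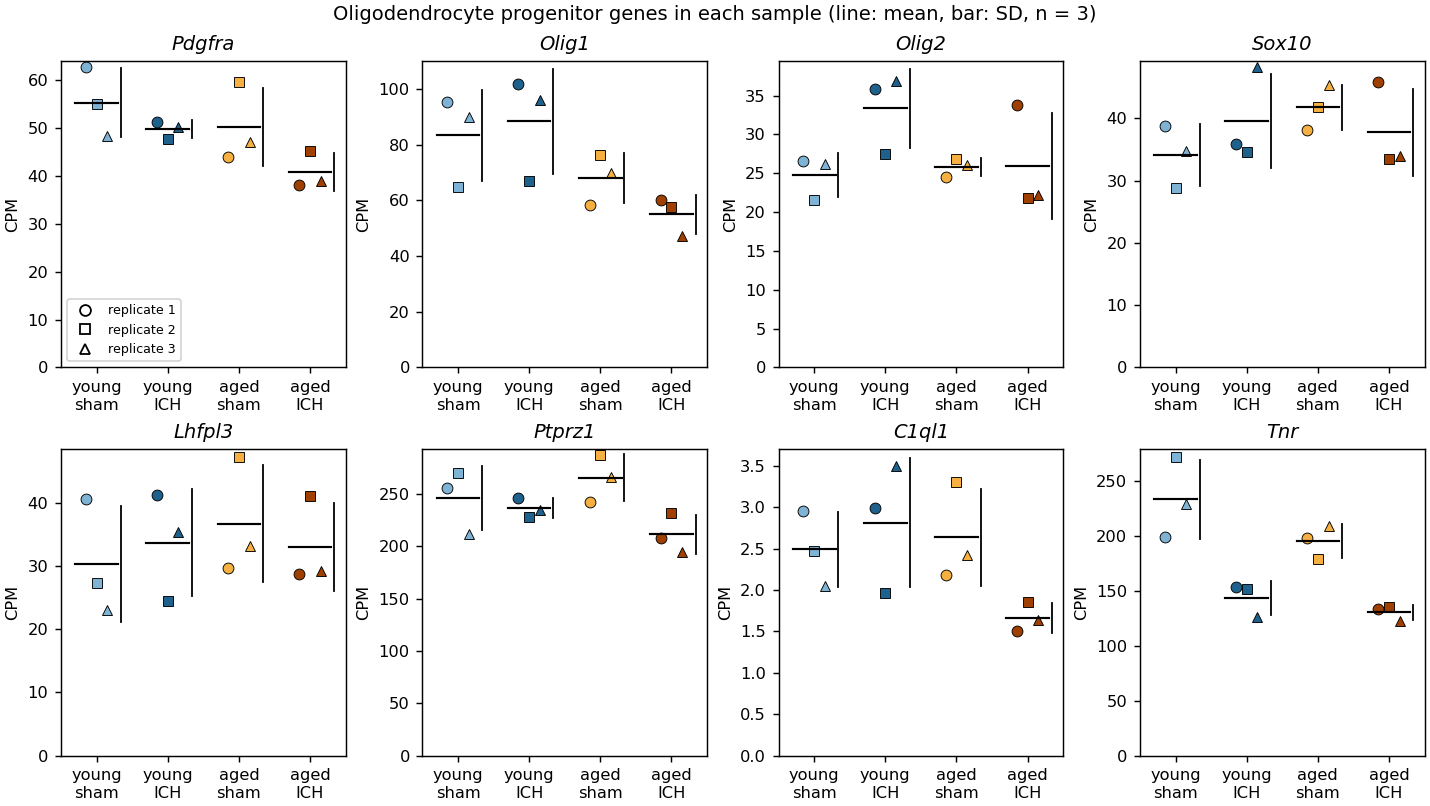
Level of each of the 8 genes in CPM (vertical axes, linear and starting at 0) in the 3 samples of each group, with symbols for replicates, a horizontal line for the mean and a bar for the SD. The ICH samples of Tnr lie below the sham samples in both ages, with no overlap, and the aged ICH samples of Olig1 (47.2 to 60.2 CPM) lie below all young ICH samples (67.0 to 102 CPM).

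Levels between genes were compared by FPKM, which divides by transcript length. In young sham tissue Olig1 was the highest of the 8, at 37.0 ± 7.36 FPKM (SD, n = 3), a level above 94.7% of the genes tested. Tnr (17.3 ± 2.64) and Ptprz1 (16.5 ± 1.97) followed and did not differ beyond their spread. Sox10 (10.7 ± 1.59), Olig2 (9.38 ± 1.11) and Lhfpl3 (9.04 ± 2.73) formed the next level, again within each other's spread. Pdgfra lay at 5.29 ± 0.678 and C1ql1, the lowest, at 1.62 ± 0.293 FPKM, with only 52 to 111 counts per library. In young ICH Olig1 was again the highest (41.7 ± 9.14 FPKM), followed by Ptprz1 (16.9 ± 0.748). Olig2 (13.5 ± 2.21), Sox10 (13.2 ± 2.72), Tnr (11.4 ± 1.08) and Lhfpl3 (10.7 ± 2.75) came next, each within the spread of its neighbours in this order.

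Olig1 and Olig2 are neighbouring helix-loop-helix factors on chromosome 16 (GRCm38). Olig2 (ENSMUSG00000039830) lies on the plus strand at chr16:91225457-91228677, and Olig1 (ENSMUSG00000046160), a gene of 1 exon on the same strand, at chr16:91269772-91271933, 41094 bp further on. Olig2 specifies the lineage and Olig1 acts with it in maturation.

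Olig2 was measured at 26.6, 21.5 and 26.2 CPM in young sham and at 35.8, 27.5 and 36.8 CPM in young ICH. All 3 young ICH samples lay above the young sham samples, the lowest of them being replicate 2, which is also low in striatal projection neuron genes. The log2FC was 0.43 (SE 0.17, edgeR adjusted P = 0.0911), so that the difference did not pass the adjusted test. It passed in only 3 of 19 other settings, over which the log2FC ranged from 0.34 to 0.56 and the adjusted P reached 0.277. The 3 were the fits without replicate 2 of young ICH (log2FC 0.56, adjusted P = 0.0405), without replicate 1 of aged ICH (0.43, adjusted P = 0.0301) and without both (0.56, adjusted P = 0.0064). The last was chosen after seeing the data. In aged mice Olig2 was at 24.5, 26.8 and 26.1 CPM in sham and at 33.7, 21.8 and 22.3 CPM in ICH. The highest aged ICH value came from replicate 1, the other library low in striatal projection neuron genes, and the groups overlapped, with a log2FC of 0.01 (95% interval −0.35 to 0.37). Without both libraries the log2FC of Olig2 in aged mice was −0.22 (adjusted P = 0.24). In all, 2 members did not overlap between young ICH and young sham (Olig2 higher, Tnr lower), where 35% of all genes did not, and 3 did not overlap between aged ICH and aged sham (Ptprz1, C1ql1 and Tnr, all lower), where 35.1% did not.

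Olig1 was measured at 95.4, 64.7 and 90.0 CPM in young sham, and at 102, 67.0 and 96.2 CPM in young ICH. In aged sham it was at 58.6, 76.2 and 69.8 CPM, and in aged ICH at 60.2, 57.6 and 47.2 CPM. The sham and ICH samples of each age overlapped, and the log2FC was 0.08 (SE 0.18) in young and −0.31 (SE 0.18) in aged mice. Between the ICH groups there was no overlap. The aged ICH level was lower with a log2FC of −0.68 (SE 0.18, 95% interval −1.08 to −0.29, unadjusted P = 0.00255 from edgeR), which made Olig1 a DEG but left an edgeR adjusted P of 0.245. DESeq2 gave a log2FC of −0.69 and called it (adjusted P = 0.022). Of the 19 other settings, DESeq2 was the only one with an adjusted P under 0.05 here.

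Since both genes were counted in the same library, the ratio of Olig1 to Olig2 counts was also computed, a choice made after their values were seen. It was 3.59, 3.01 and 3.43 in young sham, and 2.85, 2.44 and 2.61 in young ICH. In aged sham it was 2.39, 2.84 and 2.68, and in aged ICH 1.79, 2.64 and 2.12. Every young sham sample lay above every sample of the other groups. The mean was 3.34 ± 0.30 in young sham against 2.63 ± 0.205 in young ICH and 2.64 ± 0.231 in aged sham (SD, n = 3). Two-sided exact permutation tests gave P = 0.1 for both of these differences, the smallest value that 3 against 3 samples allow, and P = 0.2 for aged ICH against its sham group and 0.3 between the ICH groups (adjusted over the 4 comparisons 0.2, 0.2, 0.267 and 0.3). With 3 samples in a group this test cannot give a P under 0.1, and no other test of the ratio was run.

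Sox10 (ENSMUSG00000033006, minus strand, chr15:79154908-79165240), an HMG-box factor needed to drive myelin genes, ranged from 28.8 to 38.7 CPM in young sham and from 34.6 to 48.2 CPM in young ICH. In aged mice it ranged from 38.1 to 45.4 CPM in sham and from 33.5 to 45.8 CPM in ICH. The groups overlapped in all 4 comparisons. The log2FC after ICH was 0.21 (95% interval −0.13 to 0.56) in young and −0.14 (−0.49 to 0.20) in aged mice, and it was 0.29 (−0.06 to 0.64) in aged sham vs. young sham. Among relatives of the 3 factors, Sox9, which is also a gene of astrocytes, rose in both ages (log2FC 0.81 and 0.57), and Sox8, a close relative of Sox10, fell in aged mice (−0.65, edgeR adjusted P = 0.039) and had a log2FC of −0.34 in young mice. The call of Sox9 in young mice held in all 19 other settings, and those of Sox9 and Sox8 in aged mice were lost in 4 and 8, among them the fit without the 2 libraries low in projection neuron genes (0.46, adjusted P = 0.0797, and −0.56, adjusted P = 0.154). The third, Bhlhe22, passed in neither age, and 2 further family members, Olig3 and Bhlhe23, had too few counts to be tested.

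**Figure D2:**
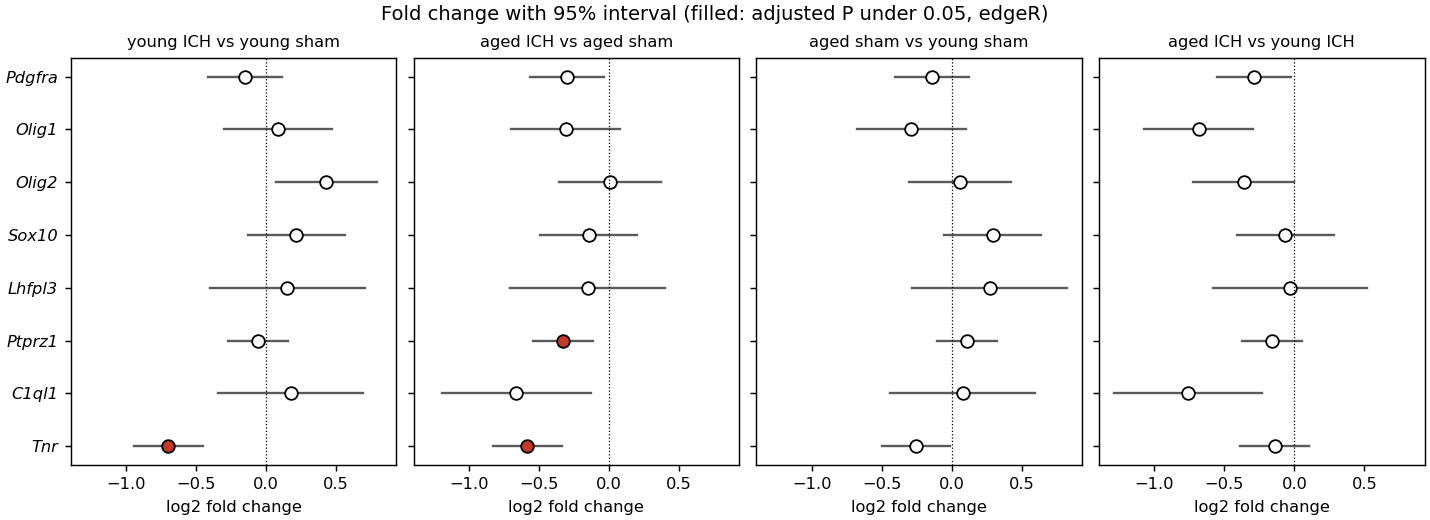
Fitted log2 fold change of each of the 8 genes (circles, horizontal axis on the log2 scale) with its 95% interval in 4 comparisons, filled where the edgeR adjusted P was under 0.05. Filled points are Tnr in both ICH comparisons (−0.70 and −0.58) and Ptprz1 in aged mice (−0.33), and all 8 points lie left of 0 in aged ICH vs. young ICH.

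Pdgfra (ENSMUSG00000029231, plus strand, chr5:75152292-75198215) encodes the receptor through which PDGF-A keeps OPCs dividing. It was measured at 62.7, 55.0 and 48.3 CPM in young sham and at 51.3, 47.8 and 50.3 CPM in young ICH, which overlapped. In aged mice it was at 44.1, 59.6 and 47.0 CPM in sham and at 38.1, 45.3 and 38.9 CPM in ICH, where 1 ICH sample reached into the sham range. The log2FC was −0.15 (SE 0.12) in young mice and −0.30 (SE 0.12, edgeR adjusted P = 0.126) in aged mice. All 3 aged ICH samples lay below the young ICH samples, with a log2FC of −0.29 (SE 0.12, edgeR adjusted P = 0.487).

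Of the 6 other PDGF ligands and receptors, all 6 were higher after ICH in both ages. The test was passed by 2 in each age, none lower, where 19.1% and 13.2% of all genes passed. Pdgfa, the ligand of Pdgfra, rose from 28.35, 25.03 and 31.28 CPM in young sham to 31.8, 37.3 and 40.3 CPM in young ICH. In aged mice it rose from 27.4, 30.9 and 29.5 CPM to 39.0, 38.7 and 35.3 CPM. The ICH samples lay above the sham samples in both ages, with a log2FC of 0.37 (edgeR adjusted P = 0.0274) and 0.36 (adjusted P = 0.0376), although these calls were lost in 6 and 9 of 19 other settings, in 4 and 7 of them by leaving out 1 library, and in both ages without the 2 libraries low in projection neuron genes (0.36, adjusted P = 0.0757, and 0.35, adjusted P = 0.141). Pdgfrb, the receptor of pericytes, rose by a log2FC of 0.57 and 0.36, the latter lost in 5 of 19 other settings (0.33, adjusted P = 0.088, without those 2 libraries). Fibroblast genes, which share Pdgfra with OPCs, had a summed level of 45.3 to 77.7 CPM in young sham, 82.9 to 144 in young ICH, 43.2 to 68.5 in aged sham and 62.0 to 78.6 in aged ICH. Of these 8 genes 1 passed in each age (Dcn, higher, in aged mice lost in 3 of 19 other settings). The part of fibroblasts in the values of Pdgfra was not tested.

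Tnr (ENSMUSG00000015829, plus strand, chr1:159523769-159931729) encodes tenascin-R, a matrix glycoprotein of the central nervous system that builds perineuronal nets around neurons and is secreted by cells of the oligodendrocyte lineage. Ptprz1 (ENSMUSG00000068748, plus strand, chr6:22875502-23052916) encodes a receptor-type tyrosine phosphatase with a chondroitin sulfate chain, called RPTPZ, whose secreted form is phosphacan and which binds tenascins and pleiotrophin. Because these were the members that passed the test, the 250 bases before their starts are shown, from RefSeq on GRCm38.p6 (plus strand, 5′ to 3′), with capitals for a match to a searched motif.
Tnr, chr1:159523519-159523768: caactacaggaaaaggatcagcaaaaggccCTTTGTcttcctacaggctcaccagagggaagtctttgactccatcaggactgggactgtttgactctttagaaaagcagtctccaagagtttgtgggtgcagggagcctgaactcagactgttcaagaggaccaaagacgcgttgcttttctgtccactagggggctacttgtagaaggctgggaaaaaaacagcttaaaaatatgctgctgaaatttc
Ptprz1, chr6:22875252-22875501: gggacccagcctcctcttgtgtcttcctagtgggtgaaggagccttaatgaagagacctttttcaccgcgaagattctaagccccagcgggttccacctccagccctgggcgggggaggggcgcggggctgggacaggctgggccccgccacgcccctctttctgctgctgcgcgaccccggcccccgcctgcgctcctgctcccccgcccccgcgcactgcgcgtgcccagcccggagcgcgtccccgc
The motifs searched on both strands were CANNTG, the E-box read by Olig factors among many others, and ACAAAG and AACAAT, of the kind read by Sox factors. The Tnr sequence held ACAAAG, as CTTTGT, 220 bases before the start, and neither of the others, and the Ptprz1 sequence held none of the 3. Of all 32851 promoter sequences of this length, 66.2% held CANNTG, 16.5% ACAAAG and 9.4% AACAAT. The sequences also differed in composition, with 46.8% GC and 2 CpG in Tnr against 71.6% GC and 22 CpG in Ptprz1, where the median over all was 52.4% GC. Sequences were found for 5 of the 8 members, and those of Olig1, Sox10 and C1ql1 were not used here.

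Tnr was measured at 199, 271 and 229 CPM in young sham and at 153, 152 and 126 CPM in young ICH. In aged mice it was at 198, 179 and 209 CPM in sham and at 133, 135 and 122 CPM in ICH. Every ICH sample lay below every sham sample of either age. The log2FC was −0.70 (SE 0.11, edgeR adjusted P = 0.00276) in young mice and −0.58 (SE 0.11, adjusted P = 0.00955) in aged mice. In each age, Tnr passed the test in all 19 other settings, with log2FC from −0.80 to −0.58 in young and from −0.64 to −0.53 in aged mice. The responses of the 2 ages were not shown to differ (interaction 0.11, 95% interval −0.23 to 0.46). Between the sham groups, which overlapped, its log2FC was −0.25 for aged vs. young mice (SE 0.11, edgeR adjusted P = 0.39).

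Neuronal genes were set beside Tnr. All 10 genes of the neuronal list were lower after ICH in both ages. The test was passed by 4 of them in young mice, where 19.1% of all genes passed, and by 1 (Gad1, log2FC −0.64) in aged mice, where 13.2% passed. Where 33.2% and 28.9% of all genes had an unadjusted P under 0.05, 7 and 2 of the 10 did. Their summed level was 8523 to 9653 CPM in young sham and 6052 to 7660 CPM in young ICH, and 8260 to 8835 CPM in aged sham and 6682 to 7221 CPM in aged ICH. Of 8 striatal interneuron genes, 7 were lower in each age and 3 passed in each (Sst, Kit and Lhx6). Their calls were lost in 0, 4 and 11 of 19 other settings in young mice and in 6, 11 and 4 in aged mice. Without the 2 libraries low in projection neuron genes, Lhx6 did not pass in young mice (−0.46, adjusted P = 0.0519), and in aged mice neither Gad1 (−0.58, adjusted P = 0.0503) nor Sst (−0.39, adjusted P = 0.137), Kit (−0.43, adjusted P = 0.145) or Lhx6 (−0.52, adjusted P = 0.0745) did. All 9 genes of striatal projection neurons were lower in both ages, with 0 past the edgeR or DESeq2 test and 0 at an unadjusted P under 0.05. The sham and ICH ranges of the projection neuron sum overlapped, whereas those of the neuronal sum and of Tnr did not. Tnr was lower also without the 2 libraries low in projection neuron genes (log2FC −0.74, edgeR adjusted P = 0.00769 in young, and −0.59, adjusted P = 0.0477 in aged mice). The part of neurons in the lower Tnr was not tested.

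**Figure D3:**
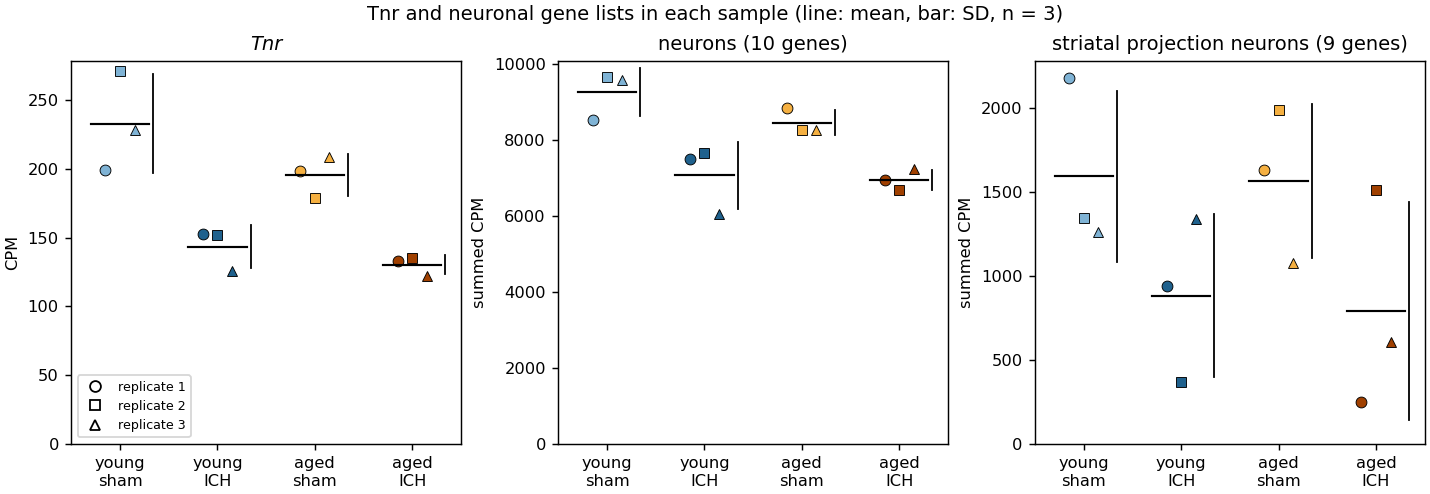
Level of Tnr in CPM, and summed level in CPM of 10 neuronal genes and of 9 genes of striatal projection neurons, in the 3 samples of each group (line, mean; bar, SD; axes start at 0). The ICH samples lie below the sham samples of their age for Tnr and for the neuronal sum, while the projection neuron sum overlaps and is lowest in young ICH replicate 2 (369) and aged ICH replicate 1 (250.1).

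Ptprz1 was measured at 255, 271 and 212 CPM in young sham and at 246, 228 and 235 CPM in young ICH, where the groups overlapped. In aged mice it was at 243, 288 and 267 CPM in sham and at 208, 232 and 195 CPM in ICH, with every ICH sample below every sham sample. The log2FC was −0.06 (SE 0.10, 95% interval −0.27 to 0.16) in young mice and −0.33 (SE 0.10, edgeR adjusted P = 0.0476) in aged mice. The fall in aged mice was under the fold change of a DEG and close to the threshold of the test, and it passed in 8 of 19 other settings. The call was lost on leaving out replicate 1 of young sham, replicates 1 or 2 of young ICH, any of the 3 aged sham samples, or replicates 1 or 3 of aged ICH, with adjusted P values of 0.0566 to 0.164 and log2FC of −0.39 to −0.27. It was also lost without the 2 libraries low in projection neuron genes (−0.31, adjusted P = 0.168). The interaction was −0.27 (95% interval −0.58 to 0.03).

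Astrocyte genes, whose cells also transcribe Ptprz1, had a summed level of 5829 to 6223 CPM in young sham, 6351 to 6946 in young ICH, 5901 to 6650 in aged sham and 6387 to 6755 in aged ICH. The largest part of this sum was Slc1a2, whose mean went from 3443 to 2790 CPM in young and from 3453 to 2725 CPM in aged mice. Gfap went the other way, from 689 to 1729 CPM and from 829 to 1821 CPM. Of the 10 astrocyte genes 5 rose and 0 fell in young mice (among them Gfap and Aldh1l1), and 3 rose and 1, the gap junction gene Gja1 (−0.51), fell in aged mice. In young mice 4 were called higher and 1 lower without the 2 libraries low in projection neuron genes. The call of Gja1 was lost in 6 of 19 other settings, and without the 2 libraries low in projection neuron genes 1 of the 10 passed in aged mice (Aldh1l1, 0.50), while Gfap (1.075, adjusted P = 0.0821), Sox9 and Gja1 (−0.54, adjusted P = 0.1) did not. Of 6 ligands and partners of RPTPZ, 1 fell in young and 3 fell in aged mice, and none rose. Of all genes tested 9.23% and 6.15% were called lower. Cntn1, the neuronal adhesion molecule contactin-1, fell in both ages (log2FC −0.39 and −0.41), and its call held in all 19 other settings in each. Ptn, the secreted ligand pleiotrophin, fell in aged mice (−0.55, edgeR adjusted P = 0.0202), a call lost in 5 of 19 other settings, and had a log2FC of −0.33 in young mice. Ptprg, the closest relative of Ptprz1, had a log2FC of −0.17 in young and −0.23 in aged mice, where its adjusted P was 0.049 and its call was lost in 14 of 19 other settings. In aged mice without the 2 libraries, Ptn was at −0.43 (adjusted P = 0.104) and Ptprg at −0.20 (adjusted P = 0.155).

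Of 9 tenascins, lecticans and link proteins, the partners of Tnr and phosphacan in the extracellular matrix, 3 rose and 1 fell in young mice, and 1 rose and 2 fell in aged mice. Of all genes tested 19.1% and 13.2% passed in either direction. Tenascin-C (Tnc), the relative of Tnr that appears in injured tissue, rose in both ages, from 4.88 to 7.35 CPM in young sham to 19.3 to 42.9 CPM in young ICH, and from 3.07 to 9.10 CPM in aged sham to 27.2 to 36.5 CPM in aged ICH. Its log2FC was 2.32 (SE 0.37) and 2.30 (SE 0.36), opposite in sign to that of Tnr. Hapln1, a link protein of perineuronal nets, fell in both ages (log2FC −0.51 and −0.72), and aggrecan (Acan), the main proteoglycan of those nets, fell in aged mice (−0.79, edgeR adjusted P = 0.0333) with a log2FC of −0.52 in young mice. Hapln2, the link protein of nodes of Ranvier, rose in young mice (0.76). The calls of Tnc in both ages, of Hapln1 in aged mice and of Hapln2 held in all 19 other settings, and those of Hapln1 in young mice and Acan were lost in 2 and 7, that of Acan also without the 2 libraries low in projection neuron genes (−0.91, adjusted P = 0.075).

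C1ql1 (ENSMUSG00000045532, minus strand, chr11:102939264-102946688) encodes a secreted C1q-like protein, which at synapses binds the adhesion receptor Adgrb3. It was measured at 2.96, 2.47 and 2.05 CPM in young sham and at 2.989, 1.964 and 3.498 CPM in young ICH. In aged sham it was at 2.19, 3.30 and 2.43 CPM, and in aged ICH at 1.51, 1.86 and 1.63 CPM. Every aged ICH sample lay below all 9 other samples. C1ql1 was a DEG in aged ICH vs. aged sham (log2FC −0.66, SE 0.24, edgeR adjusted P = 0.0961) and in aged ICH vs. young ICH (−0.76, SE 0.24, adjusted P = 0.352), and it passed the adjusted test in neither. Its interaction was −0.84 (95% interval −1.58 to −0.10, edgeR adjusted P = 0.9999). The low counts limit its precision. The receptor Adgrb3 fell in both ages (log2FC −0.45 and −0.34, the latter lost in 7 of 19 other settings and at −0.25, adjusted P = 0.153, without the 2 libraries low in projection neuron genes), while C1ql2 and C1ql3 did not pass and C1ql4 had too few counts to be tested.

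Lhfpl3 (ENSMUSG00000106379, plus strand, chr5:22746059-23275597) encodes a tetraspan membrane protein that marks OPCs. It had the highest coefficient of variation of the 8 in both sham groups (30.2% and 25.3%), whereas C1ql1 (27.7%) was highest in young ICH and Olig2 (26.1%) in aged ICH. Lhfpl3 ranged from 23.0 to 40.6 CPM in young sham, 24.4 to 41.2 in young ICH, 29.6 to 47.1 in aged sham and 28.7 to 41.03 in aged ICH. All groups overlapped. The log2FC after ICH was 0.15 (95% interval −0.40 to 0.70) in young and −0.15 (−0.70 to 0.40) in aged mice. Any change within these intervals, lower or higher, was compatible with the values. Lhfpl3 shares 567 bp of exon with an opposite-strand RNA, A930003O13Rik, which had at most 70 counts where Lhfpl3 had at least 698. Among 4 relatives tested, Lhfpl4, which assembles inhibitory synapses, fell in both ages (−0.33 and −0.29), and Lhfpl2 rose in young mice (0.33), calls that were lost in 3, 13 and 12 of 19 other settings. Lhfpl4 in aged mice was at −0.22 (adjusted P = 0.2) without the 2 libraries low in projection neuron genes. Lhfpl1 was not tested.

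The effect of age was compared in sham and in ICH tissue. In aged sham vs. young sham 0 of 8 members passed in edgeR or DESeq2, where 0.102% of all genes passed in edgeR and 1.2% in DESeq2. There was 0 DEG among the members (3.72% of all genes), 1 member, Tnr, with an unadjusted P under 0.05 (12.3%), and none whose groups did not overlap (21% of all genes). The log2FC ranged from −0.29 (Olig1) to 0.29 (Sox10), with a median of 0.07. In aged ICH vs. young ICH all 8 members were lower, with log2FC from −0.76 to −0.03 and a median of −0.23, where 51% of all genes were lower. Other lists were also mostly lower there, with 12 of 14 genes of mature oligodendrocytes and myelin (median −0.49), 8 of 10 of astrocytes and 7 of 8 of fibroblasts. So were 8 of 9 genes of striatal projection neurons, 7 of 10 neuronal genes, 5 of 6 of cortical neurons and 8 of 8 of choroid plexus and ependyma. Of striatal interneuron genes 3 of 8 were lower, of neutrophil genes 0 of 7, and of monocyte and macrophage genes 3 of 8. Of the members, 0 passed in edgeR (0.0558% of all genes) and 1 passed in DESeq2 (Olig1, against 0.952%). An unadjusted P under 0.05 was found for 4, Pdgfra, Olig1, Olig2 and C1ql1 (9.54% of all genes). By the DEG criterion there were 2 (Olig1 and C1ql1), against 3.52% of all genes, and 3 did not overlap (Pdgfra, Olig1 and C1ql1), against 13.3%. Each group enters more than 1 comparison, so that these values are not independent of those after ICH.

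Other genes of the lineage were followed through its stages. Of 18 other OPC markers, 0 rose and 3 fell in young ICH, with 5 higher and 13 lower in all and a median log2FC of −0.16. Of all genes tested 9.23% were called lower in young ICH and 6.15% in aged ICH. Among the 3 that fell were Xylt1, an enzyme that starts proteoglycan chains (−0.47, edgeR adjusted P = 0.0132), and the proteoglycan Cspg5 (−0.27, adjusted P = 0.0218), whose calls were lost in 3 and 5 of 19 other settings. In aged ICH 0 rose and 2 fell, with 2 higher and 16 lower and a median of −0.28, and Cspg4, the NG2 proteoglycan of OPCs, had a log2FC of −0.43 (adjusted P = 0.0837). DESeq2 called 5 of the 18 in each age, against 22.7% and 20.5% of the genes it tested. Without the 2 libraries low in projection neuron genes edgeR called 5 in young and 1 in aged mice, all lower. The shares over all genes were 17.8% and 3.51% there.

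The 2 that fell in aged mice, Gpr17 and Neu4, are genes of progenitors that have begun to differentiate and stand in both the OPC list and the list of committed cells. Gpr17, a receptor of committed progenitors, was at 57.8, 43.7 and 38.6 CPM in young sham and at 40.1, 31.9 and 34.4 CPM in young ICH. In aged sham it was at 20.1, 29.3 and 18.8 CPM, and in aged ICH at 8.00, 13.4 and 8.48 CPM. All 6 aged samples lay below all 6 young samples, and the aged ICH samples lay below all others. Gpr17 fell in aged ICH vs. aged sham (log2FC −1.19, SE 0.23, edgeR adjusted P = 0.00955), and was lower in aged ICH than in young ICH (−1.83, SE 0.23, adjusted P = 0.0174). The first call was lost in 2 of 19 other settings, without replicate 1 of aged ICH and without the 2 libraries low in projection neuron genes (−1.04, adjusted P = 0.0571). The second was lost in 6, namely without replicates 1 or 3 of young ICH, without replicates 1 or 3 of aged ICH, in the fit of only the groups compared, and without the 2 libraries (−1.77, adjusted P = 0.147). In aged sham vs. young sham its log2FC was −1.04 (edgeR adjusted P = 0.13), which made it the 1 DEG among the 18 OPC markers (3.72% of all genes). DESeq2 called 1 of the 18 there, against 1.2% of the genes it tested.

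Of 12 genes of committed and newly formed oligodendrocytes, 1 rose (Bcas1, 0.66, lost in 3 of 19 other settings) and 0 fell in young ICH. In aged ICH 0 rose and 3 fell (Gpr17, Neu4 and Enpp6). The medians were 0.07 in young and −0.04 in aged mice, and 19.1% and 13.2% of all genes passed in either direction. Enpp6, a marker of newly formed oligodendrocytes, had a log2FC of −0.80 in aged mice (edgeR adjusted P = 0.0427), and this call and that of Neu4 were lost in 12 and 9 of 19 other settings. Without the 2 libraries low in projection neuron genes 0 of the 12 passed in aged mice, with Enpp6 at −0.86 (adjusted P = 0.0876) and Neu4 at −0.83 (adjusted P = 0.14). Of 14 genes of mature oligodendrocytes and myelin, 1 rose (transferrin, Trf, 1.195, lost in 3 of 19 other settings) and 0 fell in young ICH. In aged ICH 0 rose and 6 fell. Among them were the myelin genes Mog (−0.85), Cnp (−0.81) and Mal (−0.77) and the metabolic enzymes Ugt8a (−0.98) and Aspa (−1.10). The calls of Ugt8a and Aspa held in all 19 other settings, and those of Mog, Cnp and Mal were lost in 4, 4 and 5 of them. In aged mice without the 2 libraries, 3 of the 14 passed, and Mog (−0.84, adjusted P = 0.0572), Cnp (−0.77, adjusted P = 0.0604) and Mal (−0.72, adjusted P = 0.0916) did not. The medians were −0.02 and −0.46. For none of the 3 stages did a gene pass the interaction test in edgeR or DESeq2. An unadjusted P under 0.05 was found there for 2 of 18 other OPC markers, 1 of 12 committed and 5 of 14 mature genes. The share over all genes was 2.82%.

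**Figure D4:**
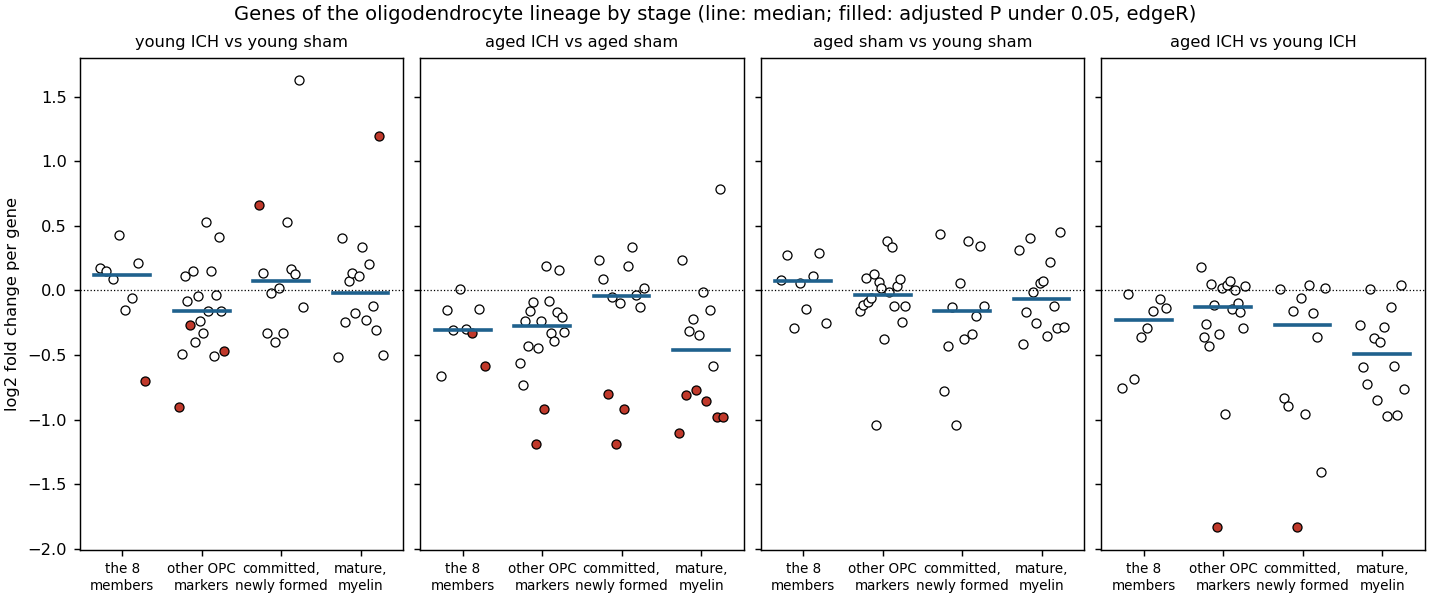
Fitted log2 fold change (vertical axis) of each gene of the 8 members, 18 other OPC markers, 12 genes of committed and newly formed oligodendrocytes and 14 genes of mature oligodendrocytes and myelin in 4 comparisons, with a line for the median and filled points for an edgeR adjusted P under 0.05. In aged ICH vs. aged sham all filled points are below 0 (2, 2, 3 and 6 genes), and Gpr17 and Neu4 are drawn in 2 lists.

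Of 16 regulators of OPC differentiation, 2 rose and 1 fell in young ICH, and 2 rose and 2 fell in aged ICH. Of all genes tested 19.1% and 13.2% passed in either direction. Hes1, the Notch target that holds back differentiation, rose in both ages (log2FC 0.54 and 0.49), and Lingo1, a membrane inhibitor of differentiation that neurons also carry, fell in both (−0.93 and −0.58). Chd7, a chromatin remodeler that works with Sox10, rose in young mice (0.44, lost in 1 of 19 other settings). Id2, an inhibitor of helix-loop-helix factors, rose in aged mice (0.37, edgeR adjusted P = 0.0499, lost in 12 of 19 other settings). Their relatives on the list, Hes5 beside Hes1 and Id4 beside Id2, had lower means after ICH and passed in neither age. Hes5 went from 2.39 to 1.31 CPM in young and from 3.00 to 1.95 CPM in aged mice. Id4 went from 97.8 to 75.3 CPM and from 125 to 67.3 CPM. Gpr37, a receptor of maturing oligodendrocytes, fell in aged mice (−1.0003, edgeR adjusted P = 0.00796) and had a log2FC of −0.53 in young mice. The calls of Hes1 and Lingo1 in young mice and of Gpr37 in aged mice held in all 19 other settings, while Hes1 and Lingo1 in aged mice lost theirs in 3 and 4. Hes1 (0.39, adjusted P = 0.0807) and Id2 (0.40, adjusted P = 0.108) did not pass in aged mice without the 2 libraries low in projection neuron genes.

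**Figure D5:**
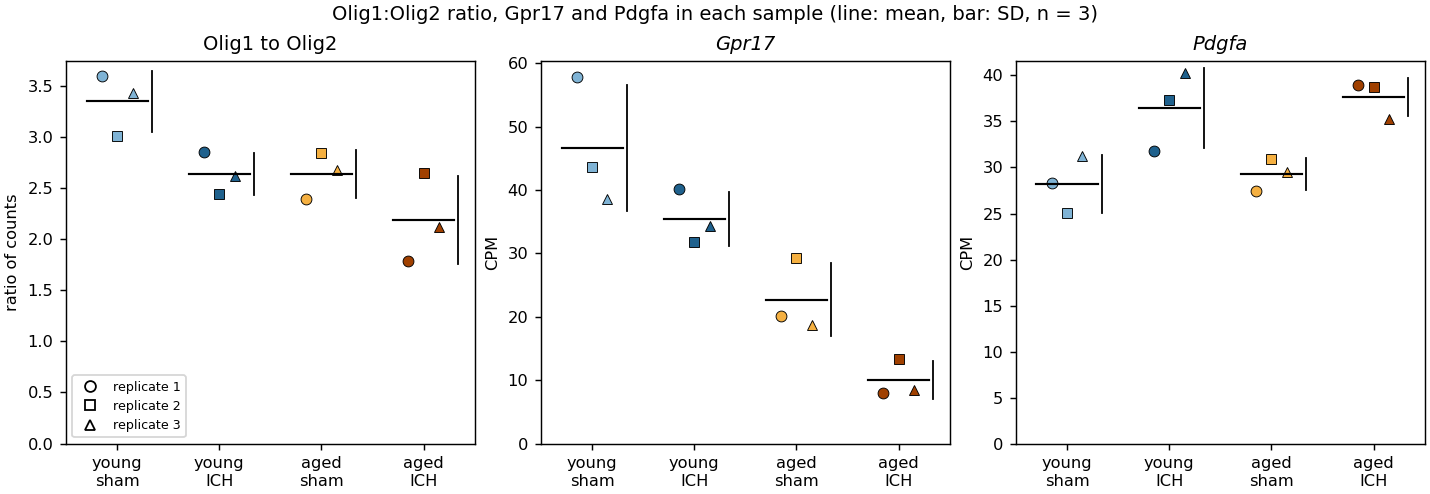
Ratio of Olig1 to Olig2 counts, and levels of Gpr17 and Pdgfa in CPM, in the 3 samples of each group (line, mean; bar, SD; axes start at 0). The ratio is highest in young sham (3.01 to 3.59), Gpr17 is lowest in aged ICH (8.00 to 13.4 CPM), and Pdgfa is higher in ICH than in sham samples of both ages.

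The 8 members were not equally alike in their values over the 12 samples. By the root mean square difference of log2 CPM, each gene centred on its own mean, the closest pair was Pdgfra and Ptprz1 (0.131) and the next Olig2 and Sox10 (0.195), whereas Tnr stood apart from Olig2 (0.513) and Lhfpl3 (0.526). Within groups the members tended to move together in some libraries. Above the group mean lay 7 of 8 in replicate 1 of young sham, replicate 1 of young ICH and replicate 2 of aged sham. In replicate 2 of young ICH and replicate 1 of aged sham 1 of 8 lay above it, and in replicate 3 of aged ICH 0 of 8. The genes outside the 8 most like their mean profile, which spanned 0.58 on the log2 scale, were Gna12 (0.0627), Serpine2 (0.0651), Foxn3 (0.0685), C330018D20Rik (0.0696), Wscd1 (0.0751) and Fads2 (0.0775). The genes nearest to single members were Myo5a (0.0753) and Zyg11b (0.083) for Tnr, Mboat2 (0.0576) and D3Ertd751e (0.0657) for Ptprz1, and Sh3gl3 (0.0707) and Mmd2 (0.0745) for Pdgfra. For Olig1 they were Pdlim2 (0.124) and Grb14 (0.125), for Olig2 Aurka (0.12) and Tie1 (0.131), and for Sox10 Prob1 (0.0767) and 2310015A10Rik (0.0966). For Lhfpl3 they were Arhgap24 (0.122) and Nacc2 (0.124), and for C1ql1 Gm26575 (0.146) and Slc39a12 (0.16).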

How the data were processed

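Total RNA of 12 samples, 3 in each of 4 groups, was sequenced as paired-end libraries. The authors used HISAT2 for alignment to GRCm38.p6 and featureCounts (Subread) for counting per gene, and deposited raw counts and FPKM for 54833 genes. The strand setting and the treatment of reads with several alignments are not given in the sources used here. All columns of samples were assigned by the labels (0 left over). The 28410896 to 37785160 counts per library limit the precision of genes with few counts.

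Differences were tested on the counts by quasi-likelihood in edgeR 4.0.16 (with limma 3.58.1 in R 4.3.3) after TMM normalization, with all 12 samples in one fit of 4 groups and the 21495 genes that passed filterByExpr at a minimum count of 10. P values were adjusted by the Benjamini-Hochberg method over all genes tested. SE was obtained from the size of log2FC over the root of its F statistic, and intervals are 95% intervals of the fit. CPM were computed with the TMM-scaled library sizes, and centred log2 CPM used a prior count of 2. The FPKM deposited by the authors served only to compare levels between genes. DEGs followed the study's FC criterion. The interaction is the log2FC of aged minus that of young mice. The pipeline was tested on simulated data.

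The members and the 21 lists of other genes (OPC markers, committed and mature oligodendrocytes, PDGF genes, regulators, factor families, RPTPZ partners, matrix genes, C1q-like and LHFPL families, the cell cycle, and markers of astrocytes, fibroblasts, neurons of 4 kinds, choroid plexus and ependyma, neuroblasts, neutrophils and monocytes) were chosen with earlier results of these data known. Named were all members, up to 6 genes per list with the smallest P in a comparison, the 6 genes most like the mean profile and the 2 most like each member. Slc1a2 was named for its level in the astrocyte sum. Alternatives were DESeq2 (1.42.0), its size factors, upper-quartile normalization, no filter, only the groups compared, the replicate number as a block, each sample left out, the DEG criterion and, chosen after seeing the data, the omission of the 2 libraries low in striatal projection neuron genes. Ratios were tested with scipy 1.17.1. Gene positions came by identifier from GENCODE vM21 (GRCm38), which held 54409 of the genes. Some genes of the lists, counted with them, are not reported here by name.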

Additional observations from a re-analysis of the deposited data

How the results depend on the processing

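The count of members past the adjusted test in aged ICH vs. aged sham went from 2 to 1, with Ptprz1 lost, under upper-quartile normalization, in the fit of only the groups compared, and without the 2 libraries low in striatal projection neuron genes, the alternative chosen after seeing the data. It lay between 1 and 2 when 1 sample was left out. In young ICH vs. young sham the count lay between 1 and 2 when 1 sample was left out and was 2, with Olig2 added, without those 2 libraries. In aged ICH vs. young ICH it went from 0 to 1 (Olig1) with DESeq2 and from 0 to 2 (Olig1 and C1ql1) with the DEG criterion, and in the interaction from 0 to 1 (C1ql1) with that criterion. The other counts were unchanged or within 1.5 times under the alternatives run. The causes were not tested.

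Signs turned only where a log2FC was near 0 and uncalled. Olig2 in aged ICH vs. aged sham was −0.0008 with DESeq2, −0.0167 with the replicate block and −0.22 without the 2 libraries. With 1 sample left out, it ranged from −0.23 to 0.12, and Lhfpl3 in that comparison from −0.34 to 0.0698. In young ICH vs. young sham, Olig1 ranged from −0.0699 to 0.25, Lhfpl3 from −0.0224 to 0.42, Ptprz1 from −0.15 to 0.0153 and C1ql1 from −0.0077 to 0.38. In aged sham vs. young sham, Olig2 ranged from −0.0339 to 0.11 and C1ql1 from −0.11 to 0.22. In aged ICH vs. young ICH, Sox10 ranged from −0.23 to 0.10 and Lhfpl3 from −0.22 to 0.14, and in the interaction Tnr ranged from −0.0082 to 0.22.

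No pairing of samples by replicate number was seen, since 3 of 12 correlations of same-numbered samples were over 0.1 (range −0.45 to 0.23) and 3 of 12 samples correlated best with their own number. With 3 samples in a group this cannot exclude a pairing, and the labels do not say whether same-numbered samples share a batch. With the replicate block, 1, 2, 0, 0 and 0 members were called in the 5 comparisons, as without it, and the calls over all genes went from 4110 to 3502 in young ICH, from 2828 to 2464 in aged ICH, from 22 to 12 in aged sham vs. young sham and from 12 to 8 in aged ICH vs. young ICH. DESeq2 called 4746, 3675, 269 and 192 genes in these comparisons and 1 in the interaction, where edgeR called 0 and 606 had an unadjusted P under 0.05. Without the 2 libraries the calls over all genes went to 3897 in young ICH, 769 in aged ICH and 5 in aged ICH vs. young ICH. Of the list genes called after ICH, 28 of 47 in young and 10 of 48 in aged mice held in all 19 alternatives, and leaving out 1 library lost 18 and 37 of them in at least 1 case. None changed sign.

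Precision was limited by 3 pools per group, by the low counts of C1ql1 (52 to 111 per library) and by the spread of Lhfpl3. No sample measured OPCs apart from other cells.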

Other observations

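Genes of the cell cycle, which OPCs share with every other dividing cell, were higher after ICH for 12 of 12 list members in both ages. In young mice 1 passed the edgeR test (Birc5, log2FC 0.89), with a median of 0.45 over the list. In aged mice 2 passed (Ccnb1, 2.06, and Rrm2, 1.27), with a median of 0.91. DESeq2 called 2 of the 12 in young and 6 in aged mice, against 22.7% and 20.5% of the genes it tested. By the DEG criterion there were 2 and 10, against 12.2% and 10.1% of all genes. The calls of Birc5, Ccnb1 and Rrm2 were lost in 6, 5 and 8 of 19 other settings, and without the 2 libraries low in striatal projection neuron genes 2 passed in young and 0 in aged mice (Ccnb1 1.496, adjusted P = 0.0746, and Rrm2 0.91, adjusted P = 0.0993). In aged sham vs. young sham 11 of 12 were lower, with 0 past the edgeR test, 1 past that of DESeq2 and 5 at an unadjusted P under 0.05. The shares over all genes were 0.102%, 1.2% and 12.3%. The summed level of the 12 genes was 42.1 to 49.9 CPM in young sham, 42.2 to 74.7 in young ICH, 23.6 to 41.6 in aged sham and 43.8 to 70.3 in aged ICH.

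Of 7 neutrophil genes tested, 7 rose in young and 6 in aged ICH, and of 8 genes of monocytes and macrophages 6 rose in each age. Without the 2 libraries low in striatal projection neuron genes, 7 and 1 neutrophil genes and 7 and 3 monocyte and macrophage genes passed. Of 8 neuroblast genes, 1 rose and 1 fell in young ICH and 1 rose in aged ICH. None of the 6 genes of cortical neurons and none of the 8 of choroid plexus and ependyma passed the edgeR test in either age, although 3 of the cortical genes passed in young mice without those 2 libraries, all lower, and DESeq2 called 1 of the choroid plexus and ependyma genes in aged mice. Tcf7l2, a gene of committed oligodendrocytes that other brain regions also transcribe, stood at 82.3 CPM in replicate 1 of young ICH against 6.53 to 26.9 CPM in the other libraries.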
